A study of Drosophila melanogaster with 10 samples.

Results

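The genes described here encode the proteins of the mitochondrial ribosome, followed through RNAi against Polycomb group proteins in cultured Drosophila melanogaster cells. They were chosen by name: every row of the expression table whose symbol begins with mRpL or mRpS followed by a number. The rule found 72 of 7624 genes, 46 of the large subunit (mRpL) and 26 of the small subunit (mRpS). All 72 had a gene model in the fly annotation, which holds 1 more gene of this naming, mRpL47, not analysed here.

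The cells were ML-DmBG3-c2, which grow from tissue of the larval central nervous system. RNA still attached to chromatin was isolated and sequenced in 10 libraries, 3 after a mock treatment, 3 labelled Ph RNAi and 4 labelled Sce RNAi, with double-stranded RNA as the RNAi agent and no genotype difference between groups. Ph (Polyhomeotic) and Sce (Sex combs extra) are subunits of Polycomb repressive complex 1, and the comparison asks how transcription differs when either is targeted. For the same genes the authors' deposited table also gives ratios to mock in total RNA after Ph, Sce and Pc (Polycomb) RNAi, from libraries outside these 10.

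The mitochondrial ribosome translates the few proteins encoded by mitochondrial DNA, all of them subunits of the oxidative phosphorylation complexes. Its RNA comes from the mitochondrial genome, but every one of its proteins is made from a nuclear gene on cytoplasmic ribosomes and imported. Many of these proteins descend from bacterial ribosomal proteins and keep the bacterial number, while the higher numbers mostly belong to proteins that mitochondrial ribosomes gained later. By number alone, 42 of the genes fall in the range of bacterial ribosomal proteins, up to L36 and S21, and 30 above it. That split is coarse, since mRpS24, for example, lies above the range although its human relative is counted with bacterial S3.

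The table gives the authors' mean nascent signal per gene for each group and no value per library, so no spread between replicates can be printed, and the authors' q-value, with 0.05 as threshold, is the test used throughout. The labels do not say whether replicates were separate cultures, so that test may measure technical spread. Group sums lay between 191793598 and 192278102, a common total under which a shift of all genes together would not be seen. Depth per library is unknown. The genes named as RNAi targets stood above mock under their own label: ph-p 4.87-fold and ph-d 5.39-fold in the libraries labelled Ph RNAi, and Sce 118-fold in those labelled Sce RNAi. In the authors' deposited table their q-values were 0.012, 0.053 and 0.377. In total RNA the ratios there under the own label were 8.64 for ph-p (q = 0.017) and 8.09 for ph-d (q = 0.028). For Sce the total RNA ratio was 27.0 (q = 0.198) and for Pc 21.5 (q = 0.13). The groups are therefore called by their labels below. Of the neural markers, elav had a mock mean of 9594, pros of 10964 and repo, which marks glia, of 2890. Some other markers had more mock signal, such as CadN of neurons (863517), vkg of blood cells (1415310) and Mef2 of muscle (202283). Others had less, such as Hml of blood cells (271). Under the Ph RNAi label 3 of 4 neuron markers lay above mock, up to Nrg at 6.73-fold, and CadN lay below at 0.481. Under the Ph RNAi label 3 of 5 glial markers lay above mock, from loco at 2.33-fold to repo at 14.3-fold, and 2 below, moody at 0.890 and wrapper at 0.354. All 3 neuroblast markers lay above, mira at 1.92-fold, pros at 3.26-fold and insc at 4.21-fold, with a smallest q-value of 0.073. Of 2 muscle markers, sls (288297 in mock) lay above at 1.41-fold and Mef2 below at 0.830, with a smallest q-value of 0.209. Of 8 blood cell markers 3 lay above, up to lz at 12.2-fold, and 5 below. The lowest was Ppn at 0.313, and the collagen gene vkg was at 0.374. In the authors' deposited table the q-values for Ph were 0.012 for Nrg, 0.036 for CadN and 0.044 for Ppn. They were over the threshold for loco (0.065), repo (0.127), lz (0.11), vkg (0.058), wrapper (0.182) and moody (0.39). The part of these marker differences in the values below was not tested, and in bulk RNA fewer cells of a type cannot be told apart from less RNA per cell.

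In mock-treated cells the mitochondrial ribosomal protein genes carried little nascent signal. Together they held 0.0654% of the summed signal in mock, 0.0719% under the Ph RNAi label and 0.0678% under the Sce RNAi label. Mean mock signal per gene ran from 174 for mRpS6 to 20294 for mRpS9, with a median of 1024. The median mock mean of the 7486 table genes with a model was 4394, and 3 members, mRpS9, mRpS5 (8492) and mRpL44 (4519), lay above it. The gene models of mRpS9 and mRpS5 are the longest of the set, 13391 and 6299 bases, against a median of 885 bases for the members and 2785 for all genes with a model. Across the 72 genes, model length and mock signal had a Spearman correlation of 0.70, and across all 7486 genes with a model 0.63. This is a description across genes of the same libraries.

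Per kilobase of gene model, the members lay just under the typical gene. Their median mock signal per kilobase was 1253, with quartiles of 890 and 1707, against 1564 for all genes. Genes for cytoplasmic ribosomal proteins had a median of 19343 per kilobase and those for oxidative phosphorylation subunits 3360. The highest members on this scale were mRpL44 (3849), whose protein has a ribonuclease III-like fold, mRpL4 (3599), a counterpart of bacterial L4, and mRpS22 (2826), a small-subunit protein without a bacterial counterpart. The lowest were mRpS6 (251), mRpL21 (352) and mRpL55 (459). The median per kilobase was 1391 under the Ph RNAi label and 1395 under the Sce RNAi label, against 1601 and 1593 for all genes.

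No mitochondrial ribosomal protein gene passed the authors' threshold in nascent RNA under the Ph RNAi label. Of 72 genes 0 had a q-value under 0.05 in the authors' deposited table, beside 2.48% of all 7624 genes. At a share this small, 0 of 72 says little about the members. An unadjusted p under 0.05 was listed for 4 of them, all higher than mock, which is 5.56% beside 16.5% of all genes (9.82% higher and 6.66% lower). The smallest q-value of a member was 0.113. Group means lay above mock for 44 genes and below for 28, beside 52.5% of all genes above. Among the 61 members with a mean signal over 581 the median log2 ratio, computed with 581 added to each mean, was 0.20, with quartiles of -0.08 and 0.37. The same median over the 6942 genes that passed this filter was 0.03, with quartiles of -0.25 and 0.32.

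The 4 members with an unadjusted p under 0.05 belong to both subunits. For mRpL28, a counterpart of bacterial L28, the mean signal was 2732 in mock, 5404 under the Ph RNAi label and 5382 under the Sce RNAi label. The authors' deposited table gave it a Ph ratio of 1.98 with a q-value of 0.162, so it stayed short of the threshold. For mRpL48, a large-subunit protein with a higher number, the means were 951 in mock, 1787 under Ph RNAi and 1416 under Sce RNAi. Its ratio in the authors' deposited table was 1.88 for Ph (q = 0.164) and 1.49 for Sce (q = 0.662). The small-subunit genes mRpS22 and mRpS29 differed less from mock, and mRpS22 had means of 3790 in mock, 5100 under Ph RNAi and 4144 under Sce RNAi. The gene mRpS29, whose human relative is the GTP-binding protein DAP3, had 2759, 3720 and 2912 in the same order. Both had a Ph ratio of 1.35 in the authors' deposited table, with q-values of 0.113 and 0.118.

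Larger ratios than these were found in other members. Over 1.5-fold above mock under the Ph RNAi label were 10 members, beside 16.5% of all genes, and over 1.5-fold below were 4, beside 13.2%. The higher ones were large-subunit genes except mRpS24. Of them mRpL40 had means of 1040 in mock, 2146 under Ph RNAi and 2069 under Sce RNAi, a ratio of 2.06 for Ph in the authors' deposited table (q = 0.235). For mRpL32, a counterpart of bacterial L32, the means were 587 in mock, 1202 under Ph RNAi and 858 under Sce RNAi, with 2.05 and a q-value of 0.273 for Ph in the authors' deposited table. The others were mRpL28 and mRpL48, described above, mRpL50 at 1.81, mRpL10 at 1.76, mRpS24 at 1.72, mRpL41 at 1.71, mRpL9 at 1.69 and mRpL49 at 1.53. L10 anchors the stalk of the large subunit in bacteria, and mRpL9 and mRpL10 keep bacterial numbers. None of these ratios came with a q-value under 0.05.

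The 4 lower genes were mRpL42, mRpS18A, mRpS28 and mRpL36. The mean signal of mRpL42 was 758 in mock, 235 under Ph RNAi and 607 under Sce RNAi, so it lay 3.23 times lower than mock in the first and near mock in the second. The authors' deposited table gave it a q-value of 0.202 for Ph, and its mean over the groups was under the filter of 581. The gene mRpS18A, 1 of 3 fly relatives of bacterial S18, had means of 907 in mock, 353 under Ph RNAi and 389 under Sce RNAi, lower under both labels. It was 2.57 times lower for Ph (q = 0.214 in the authors' deposited table) and also fell under the signal filter. For mRpS28 the means were 1492, 865 and 1260 in the order mock, Ph and Sce, and for mRpL36, the smallest protein of the bacterial large subunit, 833, 531 and 734. Among members over the filter the lowest log2 ratios for Ph were -0.52 for mRpS28, -0.35 for mRpL2, -0.35 for mRpL36, -0.31 for mRpS18B and -0.30 for mRpS11. The highest were 0.85 for mRpL28, 0.75 for mRpL40, 0.63 for mRpL48, 0.61 for mRpL32 and 0.45 for mRpL50.

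By subunit, 31 large-subunit genes lay above mock and 15 below under the Ph RNAi label, with a median log2 ratio of 0.21 over the 42 that passed the filter. Of the small-subunit genes 13 lay above and 13 below, with a median of 0.00 over 19. Genes with bacterial numbers were 22 above and 20 below, with a median of 0.06, and those with higher numbers 22 above and 8 below, with a median of 0.29. The differences between these classes were not tested.

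**Figure D1:**
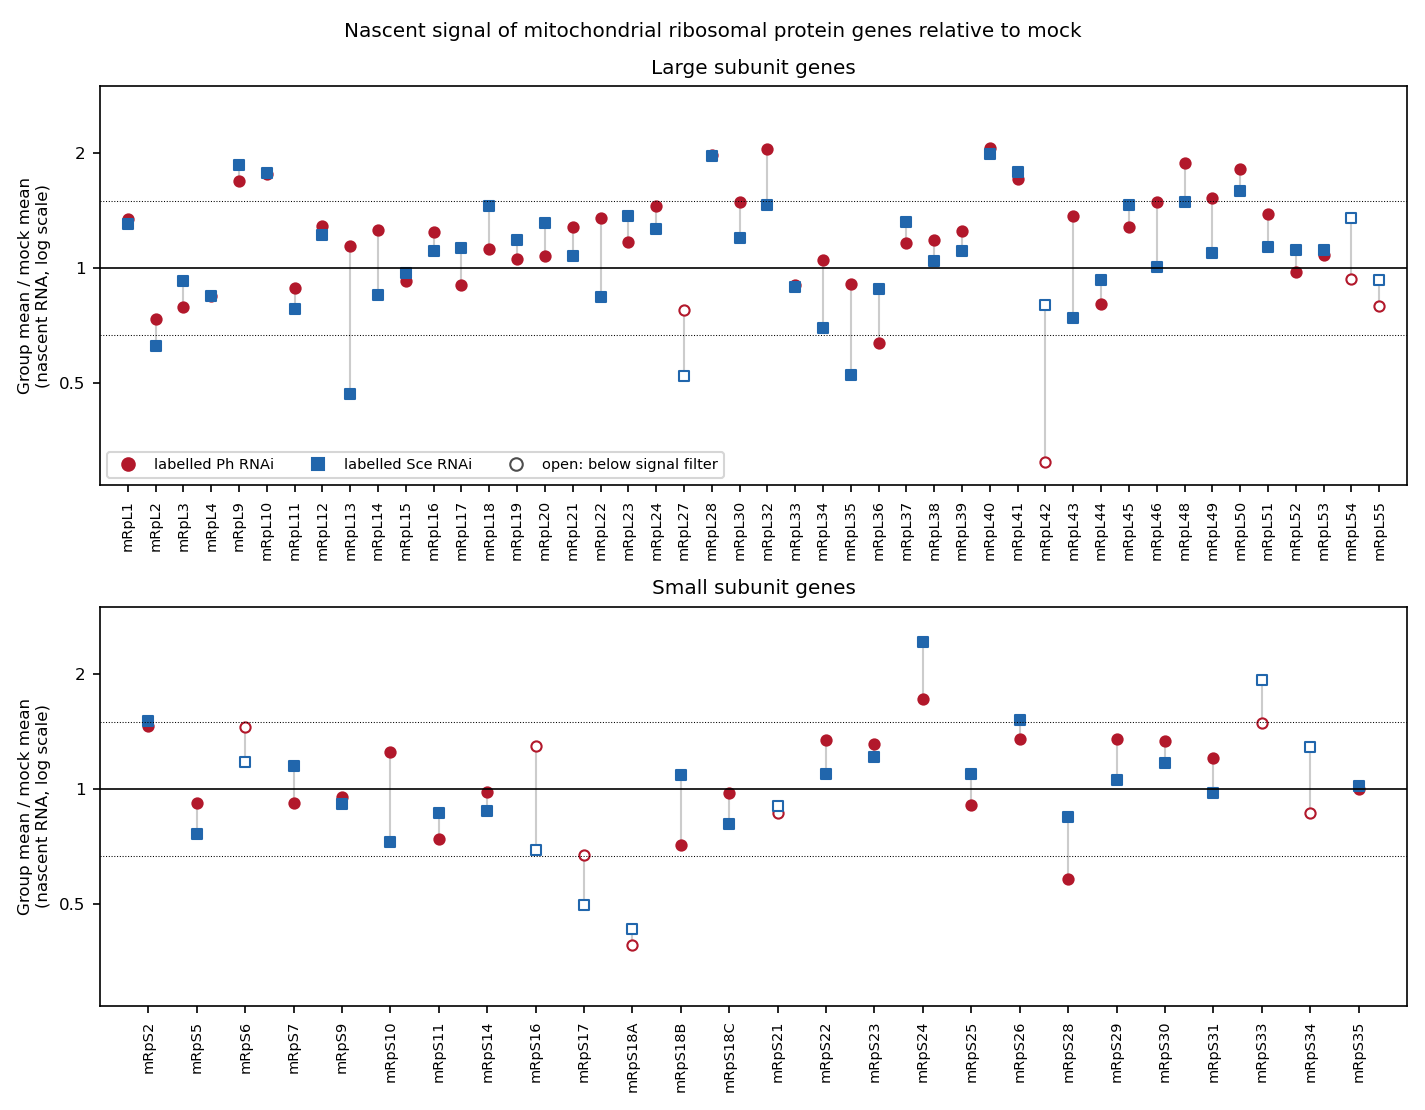
Authors' mean nascent signal of each gene divided by its mock mean, on a log scale, for the 46 large-subunit genes (top) and the 26 small-subunit genes (bottom). Circles stand for libraries labelled Ph RNAi and squares for those labelled Sce RNAi, open symbols mark the 11 genes under the signal filter, and the ratios run from 0.310 to 2.06 for Ph and from 0.429 to 2.43 for Sce.

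Under the Sce RNAi label 0 of 72 genes had a q-value under 0.05 in the authors' deposited table, where 0.118% of all genes did. That share is 9 of 7624 genes, so 0 of 72 says little about the members. An unadjusted p under 0.05 was listed for 3 members higher than mock, beside 4.62% of all genes, and for 3 lower, beside 5.29%. Together these are 8.33% of the members, against 9.9% of all genes. Means lay above mock for 43 members and below for 29, beside 51.4% of all genes above, and the median log2 ratio was 0.10 against 0.01 over all filtered genes. Large-subunit genes were 29 above and 17 below, small-subunit genes 14 and 12. The smallest q-value, 0.107 in the authors' deposited table, belonged to mRpS18A at 2.33 times lower than mock. The other lower genes of the 6 were mRpL2, counterpart of the bacterial protein next to the peptidyl transferase centre, and mRpL13. The means of mRpL2 were 2711 in mock, 1692 under Sce RNAi and 1998 under Ph RNAi, 1.60 times lower for Sce with a q-value of 0.218 in the authors' deposited table. For mRpL13 they were 813, 379 and 928, so it was low only under the Sce RNAi label, 2.14 times lower than mock, with a q-value of 0.354 in the authors' deposited table. The model of mRpL13 lies wholly inside CG10602 on the same strand, so reads of the 2 genes could be split by the counting.

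The 3 higher genes were mRpL28, mRpL40 and mRpS33. In the authors' deposited table their Sce ratios were 1.97, 1.99 and 1.94 and their q-values 0.399, 0.352 and 0.333. Over 1.5-fold above mock were 10 members, beside 12.1% of all genes, and over 1.5-fold below were 6, beside 9.73%. The largest ratio was that of mRpS24, whose means were 547 in mock, 1328 under Sce RNAi and 944 under Ph RNAi, 2.43 in the authors' deposited table for Sce (q = 0.415). The rest of the higher genes were mRpL9 at 1.87, mRpL41 at 1.79, mRpL10 at 1.78, mRpL50 at 1.59, mRpS26 at 1.51 and mRpS2 at 1.51. On the lower side mRpS17 was 2.02 times, mRpL27 1.92 times and mRpL35 1.91 times under mock, beside the 3 genes described above. The highest log2 ratios for Sce were 0.85 for mRpL28, 0.76 for mRpS24, 0.71 for mRpL40, 0.50 for mRpL9 and 0.45 for mRpL41. The lowest among genes over the filter were -0.54 for mRpL13, -0.53 for mRpL2, -0.47 for mRpL35, -0.36 for mRpS5 and -0.28 for mRpL34. The Ph and Sce ratios share the mock libraries, so their likeness for genes such as mRpL28, mRpL40 and mRpS18A is given as values side by side and not as a second observation.

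Set against each other without mock, the Ph RNAi and Sce RNAi groups differed by over 1.5-fold in 9 members, with no test in the table for this pair. The Ph mean was higher in 7, beside 11.2% of all genes, and lower in 2, beside 8.55%. The largest quotient was 2.45 for mRpL13, followed by 1.87 for mRpS16, 1.84 for mRpL43, 1.73 for mRpL35, 1.72 for mRpS10, 1.61 for mRpL22 and 1.51 for mRpL34. The Ph mean was 2.58 times lower for mRpL42 and 1.53 times lower for mRpS18B. Counting every size, the Ph mean was the higher in 39 members and the lower in 33, beside 50.4% of all genes higher. Over the filtered members the median log2 quotient was 0.05, against 0.00 for all filtered genes.

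In total RNA no member passed the threshold either. The authors' deposited table listed 0 of 72 with a q-value under 0.05 for Ph, for Sce and for Pc RNAi, where 3.88%, 0.249% and 3.19% of all genes did. At these shares 0 of 72 says little, least of all for Sce with 19 of 7624 genes called. For Ph 3 members were higher with an unadjusted p under 0.05 and 1 lower, beside 13.9% and 4.7% of all genes. For Sce 3 were higher and 1 lower, beside 9.27% and 2.3%. For Pc 4 were higher and 1 lower, beside 11.8% and 2.62%. In both directions together these are 5.56%, 5.56% and 6.94% of the members, beside 18.6%, 11.6% and 14.4% of all genes. In each of the 5 comparisons the share of members with an unadjusted p under 0.05 was thus under that of all genes. The shares lay close for Sce in nascent RNA, at 8.33% and 9.9%. The members had low signal, with a median mock mean of 1024 against 4394 for all genes with a model. The part of low signal in these shares was not tested. Comparisons of the same RNA type are against the same mock, so they are not separate observations.

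**Figure D2:**
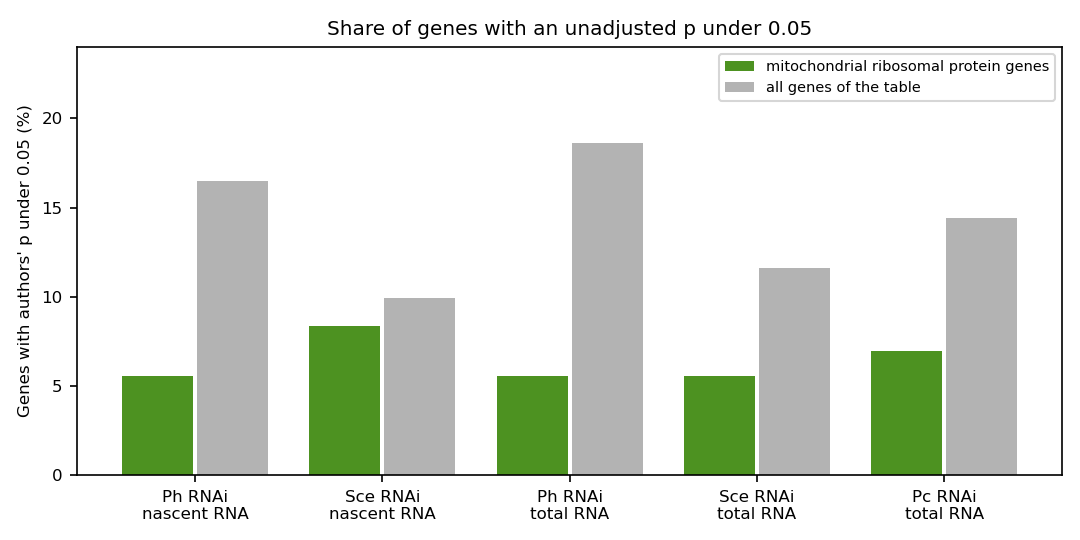
Percent of genes for which the authors' deposited table lists an unadjusted p under 0.05, for the 72 mitochondrial ribosomal protein genes (green bars) and all 7624 genes (grey bars) in 2 nascent and 3 total RNA comparisons. The members' bars lie between 5.56% and 8.33% and those of all genes between 9.9% and 18.6%.

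The gene nearest the threshold in total RNA was mRpL44, at a ratio of 1.711 for Ph with a q-value of 0.057 in the authors' deposited table. In nascent RNA mRpL44 lay below mock, with means of 4519 in mock, 3646 under Ph RNAi and 4200 under Sce RNAi. The next highest members for Ph in the authors' deposited table were mRpL37 at 1.555 (q = 0.156) and mRpS9 at 1.422 (q = 0.134). The gene mRpS9, counterpart of bacterial S9, was among the 3 highest members over the filter in all 3 total RNA comparisons, with 1.592 for Sce (q = 0.237) and 1.551 for Pc (q = 0.169) in the authors' deposited table. A model on its locus, wtrw, covers 73.3% of it. Its nascent means were close to mock, 20294 in mock, 19297 under Ph RNAi and 18555 under Sce RNAi. Among members over the filter the lowest for Ph in the authors' deposited table were mRpL17 at 0.403 (q = 0.173), mRpL34 at 0.462 (q = 0.246) and mRpS28 at 0.518 (q = 0.281), and the 1 lower gene with an unadjusted p under 0.05 was mRpL9 at 0.523 (q = 0.118). Over the same filter, for Sce the authors' deposited table had mRpS10 at 1.587 and mRpL40 at 1.552 next to mRpS9 at the top, and mRpL33 at 0.383, mRpL53 at 0.558 and mRpL10 at 0.623 at the bottom. For Pc the authors' deposited table had mRpL15 at 1.516 and mRpL48 at 1.497 after mRpS9 at the top of the filtered members, and mRpL33 at 0.363, mRpL32 at 0.533 and mRpS25 at 0.552 at the bottom. Under the filter, members of low nascent signal reached further: mRpL42 at 0.282 (q = 0.166), mRpL55 at 0.431 and mRpS17 at 0.490 for Ph, and mRpL54 at 2.137 (q = 0.163) and mRpL42 at 1.642 for Pc, all in the authors' deposited table. Of all 72 genes mRpL33, a counterpart of bacterial L33 and among the shortest transcripts of the set at 349 bases, was lowest for both Sce and Pc and at 0.615 for Ph. For Sce and Pc the authors' deposited table gave it q-values of 0.218 and 0.206. All 3 comparisons are against mock total RNA, so their values are set side by side only.

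More members lay far below mock than far above it in total RNA for Ph. By the ratios of the authors' deposited table, 17 members lay over 1.5-fold below mock, beside 14.4% of all genes, and 2 over 1.5-fold above, beside 13.1%. For Sce these counts were 7 and 4 (11.3% and 10.3% of all genes), and for Pc 9 and 4 (13% and 12.6%). Of the 61 members over the filter, 10 lay over 1.5-fold below mock for Ph, as did 840 of the 6942 filtered genes. Among transcripts of 327 to 774 bases, 36.1% of members lay that far below for Ph, against 53.75% of other genes. Among those of 783 to 2078 bases, 11.1% of members did, against 16.0% of other genes. Counting every size, 30 members had a Ph ratio above 1, 41 below and 1 equal to 1, beside 55.6% of all genes above. For Sce 33 lay above and 39 below (54.8% of all genes above), and for Pc 27 above and 44 below (53.6%). Median log2 ratios of the filtered members were -0.01 for Ph, -0.02 for Sce and -0.11 for Pc, against 0.09, 0.08 and 0.06 for all filtered genes.

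The total RNA ratio for Ph went with transcript length. Of the 36 members whose longest annotated transcript has 327 to 774 bases, 7 had a Ph ratio above 1 and 29 below, with a median ratio of 0.729. Of the 36 with 783 to 2078 bases, 23 lay above and 12 below, with a median of 1.07. Across the 72 genes, length and the log2 Ph ratio had a Spearman correlation of 0.51, and it was 0.52 within each subunit. Other genes of the table showed a relation of the same direction: those with transcripts of 327 to 774 bases had a median Ph ratio of 0.646 (560 genes, 12.5% above 1), and those of 783 to 2078 bases 0.971 (3085 genes, 46.3% above 1). Over all 7486 genes with a model the correlation was 0.39. For Sce and Pc the members' correlations with length were 0.15 and 0.07, where all genes gave 0.38 and 0.32. In nascent RNA they were 0.18 for Ph and 0.10 for Sce. Mock nascent signal and the log2 total RNA ratio for Ph had a Spearman correlation of 0.44 across the 72 genes. Across all 7486 it was 0.17. Length and signal were not separated. These correlations are descriptions across genes measured in the same libraries, and the part of library preparation in the relation with length was not tested.

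**Figure D3:**
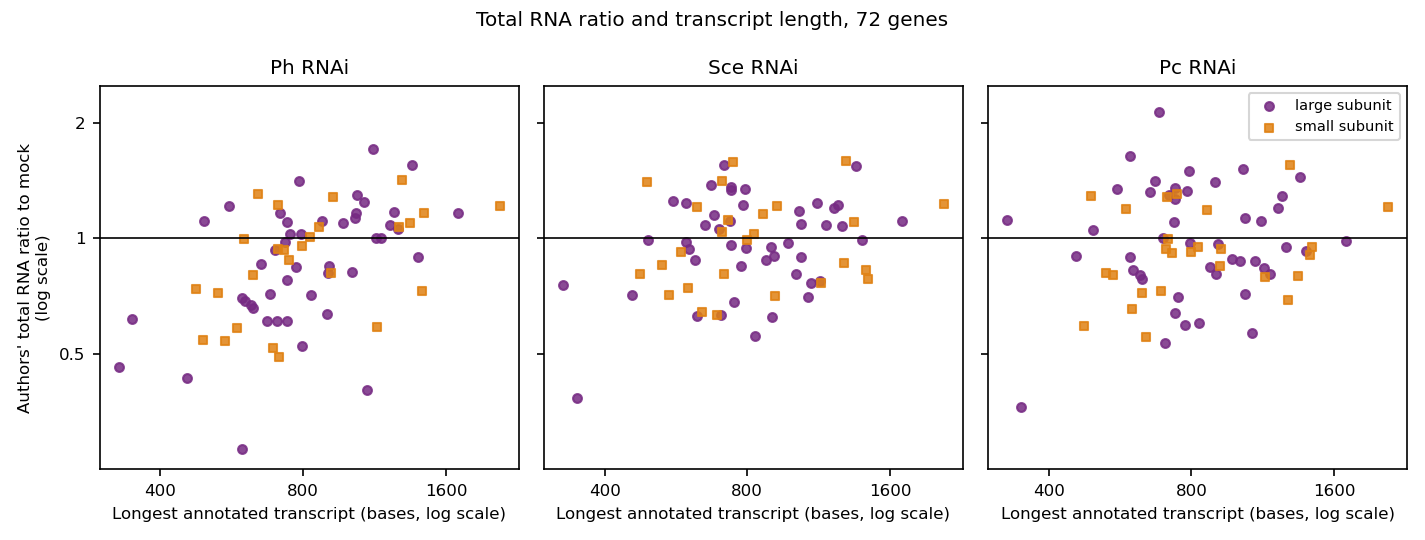
Authors' total RNA ratio to mock (log scale) against the length of the longest annotated transcript in bases (log scale) for the 72 genes, with Ph, Sce and Pc RNAi from left to right and colour and symbol marking the subunit. For Ph the short transcripts lie mostly below 1 and the Spearman correlation is 0.51, against 0.15 for Sce and 0.07 for Pc.

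Nascent and total RNA lay on opposite sides of mock in 35 members for Ph (48.6%) and in 32 for Sce (44.4%), beside 40.1% and 40.4% of all genes. For Ph 19 genes lay above mock in both, 17 below in both, 24 above in nascent and below in total RNA, and 11 the other way round, with 1 equal to mock in total RNA. For Sce the counts were 22, 18, 21 and 11. Across the 72 genes the nascent and total log2 ratios had a Spearman correlation of 0.13 for Ph and 0.14 for Sce, and across all 7486 genes 0.35 and 0.28. Of the nascent genes described above, mRpS28, mRpS18A and mRpL42 were also low in total RNA for Ph, at 0.518, 0.582 and 0.282 in the authors' deposited table (q = 0.281, 0.315 and 0.166). By contrast mRpL36, at 0.637 in nascent RNA, was at 1.108 in total RNA for Ph in the authors' deposited table. In the other direction mRpL9, at 1.69 in nascent RNA, was at 0.523 in total RNA there, and mRpL32, at 2.05, was at 0.609.

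Neighbouring groups of the same cell machinery give these values a setting. Among 11 genes of mitochondrial translation and transcription named differently, 0 had a q-value under 0.05 in any of the 5 comparisons of the authors' deposited table. Of all genes 0.118% to 3.88% did, so 0 in a list this short says little. Of the 11 genes 8 lay above mock in nascent RNA for Ph and 10 for Sce, beside 52.5% and 51.4% of all genes. The list's median log2 ratios were 0.24 for Ph and 0.27 for Sce. This list holds 2 more proteins of the mitochondrial ribosome, tko, the counterpart of bacterial S12, and bonsai, that of S15. The means of tko were 3378 in mock, 4976 under Ph RNAi and 4294 under Sce RNAi, with a Ph ratio of 1.47 and a q-value of 0.171 in the authors' deposited table. Those of bonsai were 773 in mock, 995 under Ph RNAi and 1039 under Sce RNAi. The highest gene of the list for Sce was mTTF, a mitochondrial transcription termination factor, at 1.77 with a q-value of 0.149 in the authors' deposited table.

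Genes for oxidative phosphorylation subunits (27) also had 0 with a q-value under 0.05 in the 5 comparisons of the authors' deposited table, beside 0.118% to 3.88% of all genes. In 27 genes this too says little. In nascent RNA for Ph 18 lay above mock and 9 below, with a median log2 ratio of 0.10, and for Sce 12 above and 15 below, with a median of -0.06. In total RNA for Ph 6 lay above and 21 below, beside 55.6% of all genes above, with a median of -0.43. An unadjusted p under 0.05 was listed for 2 higher and 5 lower, beside 13.9% and 4.7% of all genes. The 86 genes for cytoplasmic ribosomal proteins were lower still in total RNA for Ph, with 6 above mock and 80 below, and a median log2 ratio of -0.78. The authors' deposited table listed an unadjusted p under 0.05 for 25 of the lower genes (29.1% of the list), beside 4.7% of all genes. It listed no q-value under 0.05 for them, the smallest being 0.058. In nascent RNA the cytoplasmic list had medians of 0.11 for Ph and 0.13 for Sce, so the mitochondrial and cytoplasmic ribosomal protein genes lay near each other in nascent RNA and apart in total RNA. That difference between lists was not tested. Mitochondrial import and chaperone genes (20) had nascent medians of -0.04 for Ph and 0.05 for Sce, mitochondrial DNA maintenance genes (5) of -0.18 and 0.02, and Myc with ribosome biogenesis genes (15) of -0.05 and 0.16. The 2 mitochondrial tRNA synthetase genes had medians of -0.24 and -0.43. All 4 of these lists held 0 genes with a q-value under 0.05 in the authors' deposited table. Beside shares of 0.118% to 3.88% of all genes, 0 in lists this short says little about them.

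**Figure D4:**
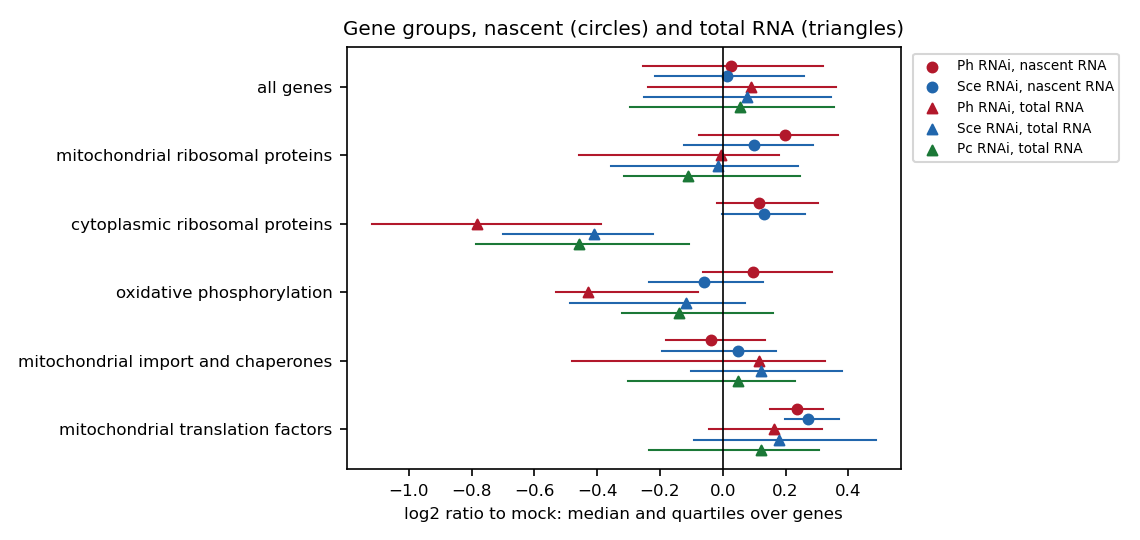
Median (symbol) and quartiles (line) of the log2 ratio to mock over the genes of each list that passed the signal filter, for nascent RNA (circles) and total RNA (triangles). The mitochondrial ribosomal protein genes have medians of 0.20 and 0.10 in nascent RNA and of -0.01, -0.02 and -0.11 in total RNA, and the cytoplasmic list reaches -0.78 in total RNA for Ph.

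The gene models of the members have an arrangement in common that the naming rule did not use. In the Ensembl annotation 51 of 72 (70.8%) start within 500 bases of the start of a protein-coding gene on the opposite strand, a head-to-head arrangement found for 40.6% of the 7486 table genes with a model. None of the partners is itself a member. Of these partners 44 are in the table, and 0 had a nascent q-value under 0.05 for Ph or for Sce in the authors' deposited table. Of all genes 2.48% did for Ph and 0.118% for Sce, so 0 of 44 says little about the partners. Member and partner lay on the same side of mock in 26 of 44 pairs for Ph and in 18 for Sce. The share among head-to-head pairs of other genes is not given here. Over 1.5-fold from mock for Ph were 10 partners and 7 members of these pairs, and in 1 pair both went over 1.5-fold the same way. For Sce 6 partners and 9 members did, again with 1 pair in common. Of all genes 16.5% lay over 1.5-fold above mock and 13.2% below for Ph, and 12.1% and 9.73% for Sce.

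Single pairs show how far head-to-head genes could differ. The gene if, which encodes the integrin inflated, starts beside mRpL22 and had nascent ratios of 5.55 for Ph and 5.90 for Sce, for which the authors' deposited table gave q-values of 0.076 and 0.093. The means of mRpL22 were 2691 in mock, 3639 under Ph RNAi and 2264 under Sce RNAi, 1.35 and 0.841 of mock. The gene CG15535 starts beside mRpS18C and had a nascent ratio of 4.35 for Ph (q = 0.128 in the authors' deposited table), while mRpS18C was at 0.976 of mock. These pairs were chosen after their values were seen.

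Models also overlap. Another model overlapped that of 42 members (58.3%), beside 55.8% of all genes with a model, and in 7 members (9.72%) it covered at least 20%, beside 18.3%. Those 7 are mRpL13 and mRpL53, wholly covered, mRpS9 (73.3%, by wtrw), mRpS24 (54.0%, by TBC1d7), mRpS21 (43.8%, by CG8870), mRpS14 (29.8%, by Naa15-16) and mRpL17 (27.2%, by CG34263). How the authors' counting treated strand is not stated in the labels or headers, so for these genes, mRpS24 with its Sce ratio of 2.43 among them, reads of the overlapping gene cannot be told apart.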

How the data were processed

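Chromatin-bound nascent RNA was sequenced on Ion Torrent libraries with uncapped and polyadenylated RNA removed, per the labels' protocols. Of 7624 genes, the deposited table gives the nascent signal averaged by the authors within each group. Beside it stand the authors' ratio to mock, p-value and q-value, per the file headers, with 3 decimals. Another 4 columns of per-group values match no sample and were not used. SAMtools and bedtools are named in the submitters' processing notes. Not given in the sources used here are the aligner, build, annotation, strand handling and the method behind p and q.

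Calls rest on the authors' q-value, with 0.05 as threshold. Log2 ratios of nascent means used a pseudocount of 581, their 10th percentile, which understates changes of low genes. The signal filter asked for an average of the 3 group means above 581, which 6942 genes and 61 of the 72 members passed. The 11 members left out were mRpL27, mRpL42, mRpL54, mRpL55, mRpS16, mRpS17, mRpS18A, mRpS21, mRpS33, mRpS34 and mRpS6; counts by direction and fold cover all 72. Total RNA values are log2 of the deposited ratio. Folds are quotients of the deposited means, within 0.000547 of the deposited ratio for every member. Lengths and neighbours came from Ensembl release 115, with older symbols matched through RefSeq synonyms: 7486 of 7624 genes (98.2%) matched. No coordinates are given, since the authors' build is unknown. Python 3.11.15, pandas 2.3.3 and numpy 2.4.6 were used, and the scripts were tested on simulated data.

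Members and gene lists were chosen with earlier results of these data known. Named members were those over 1.5-fold from mock in nascent RNA, the 5 highest and 5 lowest log2 ratios per nascent comparison, the 3 highest and lowest per total RNA comparison and the 3 highest and lowest mock levels per length. Members with an unadjusted p under 0.05, members under the filter with outlying total RNA ratios, members over 1.5-fold apart between Ph and Sce, and single genes of other lists were named after their values were seen. Other pseudocounts, filters, scalings and the leaving out of overlapped genes were tried.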

Additional observations from a re-analysis of the deposited data

How the results depend on the processing

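The table holds group means and no value per library, so leaving out single replicates could not be run. No paired analysis was possible because the columns hold group means and carry no replicate numbers. Promoter motifs were not analysed here. With an unadjusted p under 0.05 in place of the q-value, the members called numbered 4 for Ph and 6 for Sce in nascent RNA and 4, 4 and 5 for Ph, Sce and Pc in total RNA. With Benjamini-Hochberg values recomputed from the deposited p-values, 0 members were called in all 5 comparisons. The median log2 ratio of members for Ph in nascent RNA was 0.20, and became 0.046 with a pseudocount 10 times larger, 0.27 with a pseudocount of 1, 0.14 without the filter, 0.14 after quantile normalization and -0.093 over the 2 members whose mean over the groups lay above that of the median gene. For Sce in nascent RNA it was 0.10, and 0.025 with the larger pseudocount and -0.24 over those 2 members. The median of Ph against Sce, 0.05, became 0.15 over those 2 members and -0.017 after quantile normalization. In total RNA, centring on the median of all genes moved the members' medians to -0.10 for Ph, -0.093 for Sce and -0.17 for Pc, and leaving out the filter moved that for Ph to -0.10. Quantile normalization also moved the median of all filtered genes, from 0.03 to -0.05 for Ph and from 0.01 to -0.01 for Sce. For Ph against Sce it moved that median from 0.002 to -0.055. Leaving out the 7 members covered at least 20% by another model, an alternative chosen after seeing the data, moved no median by 0.05 or more.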
